A study of Arabidopsis thaliana with 18 samples.

Results

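The B-type cyclins of Arabidopsis thaliana were described in 18 libraries of root tips. The 9 genes were CYCB1;1 (AT4G37490), CYCB1;2 (AT5G06150), CYCB1;3 (AT3G11520), CYCB1;4 (AT2G26760), CYCB2;1 (AT2G17620), CYCB2;2 (AT4G35620), CYCB2;3 (AT1G20610), CYCB2;4 (AT1G76310) and CYCB3;1 (AT1G16330). They were taken by family name and locus from a table of 22093 loci, and all 9 passed the expression filter of the test.

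B-type cyclins bind cyclin-dependent kinases (CDKs) and drive cells into and through mitosis. Their transcripts and proteins build up late in G2, and the anaphase-promoting complex (APC/C) marks the proteins for destruction as mitosis ends. In plants their genes are switched on through a short promoter element, the MSA element, which three-repeat MYB factors of the MYB3R family bind. In the root, CYCB1;1 is a common reporter of dividing meristem cells, and it has also been linked to the response to DNA damage.

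Seedlings were 7 days old, and no ecotype or genotype is named in the labels. L-Kyn (L-kynurenine) inhibits auxin synthesis from tryptophan and was applied at 100 µM, for either 3 h or 6 h. Cut tips were severed 120 µm above the quiescent centre (QC), the organising cells of the root stem cell niche. There were 2 libraries of cut tips with L-Kyn for 3 h and 3 with L-Kyn for 6 h. Mock cut tips gave 3 libraries at 3 h and 2 at 6 h. Uncut tips with L-Kyn gave 3 libraries at 3 h and 2 at 6 h, and mock uncut tips gave 3, for which no time is stated. For mock cut tips the hours count from the cut. The labels state neither the order of cutting and L-Kyn nor how many roots a library pooled. For 1 library, replicate 1 of uncut tips with L-Kyn for 6 h, the source field reads cut where the title reads uncut, and the title was followed.

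Levels below are in CPM, read counts scaled to library size with TMM factors, from a kit that reads transcript 3′ ends. A library held between 1280947 and 4839810 reads on genes, and 3 reads stood for 0.620 to 2.29 CPM. The 9 genes together took 28 to 766 reads per library, and single genes in cut tips often rested on fewer than 10 reads. By their place in the table the libraries form 2 sets. Set A holds mock uncut replicates 1 and 2 and every 6 h library, and set B holds mock uncut replicate 3 and every 3 h library. Of the 2 cut tip libraries with L-Kyn for 3 h, replicate 2 stood apart, with 169 CPM over the 7 root cap markers where replicate 1 had 5.05 CPM and uncut tips of all groups had 47.5 to 273 CPM. It is called the library labelled replicate 2 below, and results that rest on it are given with and without it. A set-matched fit, with the set as a covariate and without that library, is given where it changes a call. Where the calls rest on 1 of these 2 changes, each is given alone. Its set effect is estimated from mock uncut replicate 3 against replicates 1 and 2 alone.

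The promoters of the family were read first, since the genes turned out to move together. Of the 250 bases before each annotated gene start in RefSeq's TAIR10.1, 6 of 9 held the letters AACGG, the core of the MSA element, at least 3 times on either strand. Of 27443 protein-coding genes, 20.57% held at least 1 match in a window of that length and 0.7361% held at least 3. The 6 promoters are printed by locus because they are the ones with matches. Each runs 5′ to 3′ along the gene's own strand, with AACGG and its reverse complement CCGTT in capitals.
AT4G37490, chr4:17624309-17624558, minus strand: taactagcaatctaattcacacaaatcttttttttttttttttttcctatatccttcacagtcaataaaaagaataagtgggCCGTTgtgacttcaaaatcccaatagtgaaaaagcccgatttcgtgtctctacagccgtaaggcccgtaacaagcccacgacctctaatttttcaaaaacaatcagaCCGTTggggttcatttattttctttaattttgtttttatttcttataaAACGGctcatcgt
AT5G06150, chr5:1861704-1861953, minus strand: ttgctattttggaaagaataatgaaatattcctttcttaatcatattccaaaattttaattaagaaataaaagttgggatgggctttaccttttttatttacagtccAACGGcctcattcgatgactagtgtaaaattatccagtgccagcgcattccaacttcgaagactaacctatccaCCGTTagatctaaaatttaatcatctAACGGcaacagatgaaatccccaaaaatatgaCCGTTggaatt
AT3G11520, chr3:3627274-3627523, minus strand: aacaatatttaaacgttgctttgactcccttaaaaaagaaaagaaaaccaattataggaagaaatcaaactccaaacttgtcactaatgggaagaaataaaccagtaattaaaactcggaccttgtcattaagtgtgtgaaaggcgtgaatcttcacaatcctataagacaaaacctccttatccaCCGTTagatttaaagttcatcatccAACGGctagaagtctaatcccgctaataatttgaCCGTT
AT2G17620, chr2:7663805-7664054, plus strand: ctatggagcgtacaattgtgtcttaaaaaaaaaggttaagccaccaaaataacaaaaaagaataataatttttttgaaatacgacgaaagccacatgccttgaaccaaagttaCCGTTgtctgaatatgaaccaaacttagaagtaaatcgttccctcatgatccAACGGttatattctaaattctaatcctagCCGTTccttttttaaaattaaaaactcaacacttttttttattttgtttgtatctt
AT4G35620, chr4:16901346-16901595, plus strand: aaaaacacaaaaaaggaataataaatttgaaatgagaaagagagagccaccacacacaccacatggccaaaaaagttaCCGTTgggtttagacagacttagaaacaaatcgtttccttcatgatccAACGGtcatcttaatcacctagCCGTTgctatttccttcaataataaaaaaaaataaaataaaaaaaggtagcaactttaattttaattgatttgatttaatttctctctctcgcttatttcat
AT1G20610, chr1:7137829-7138078, minus strand: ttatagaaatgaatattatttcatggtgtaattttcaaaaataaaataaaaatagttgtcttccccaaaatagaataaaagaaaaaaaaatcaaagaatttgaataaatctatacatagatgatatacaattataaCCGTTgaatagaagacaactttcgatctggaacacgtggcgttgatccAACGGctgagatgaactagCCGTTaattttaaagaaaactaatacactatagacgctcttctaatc

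The second of these promoters held 4 matches and the other 5 held 3. In the last 4 printed the matches alternated in orientation, reverse, forward, reverse. Those of the second alternated as well, from a forward match. In the 3 CYCB2 promoters printed, the start of the first match lay 52, 48 and 48 bases before that of the next, which lay 29, 22 and 19 bases before that of the last, in the order printed. CYCB1;4, CYCB2;4 and CYCB3;1 held no match in the window. Over 1000 bases before the start they held 0, 3 and 1, in the same order. The letters TTCCCGC, a form of the site of E2F factors that act at DNA replication, were searched on both strands in the same windows and were found in 0 of 9, against 1.213% of all promoters. No other annotated gene overlaps any of the 9, so their reads are not shared with a gene on the other strand.

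**Figure D1:**
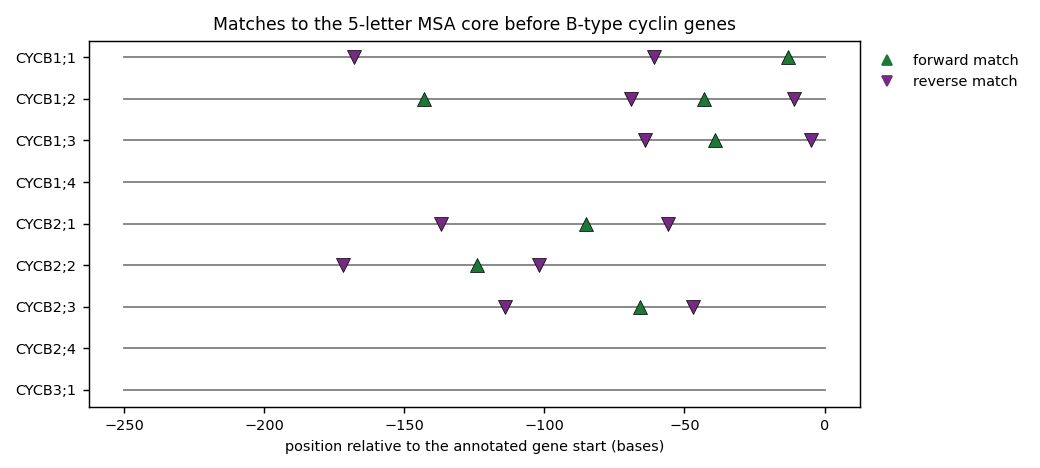
Positions of AACGG matches in the 250 bases before each of the 9 genes, on the x axis in bases relative to the annotated gene start (TAIR10.1). Upward triangles are forward matches and downward triangles reverse matches. The rows without triangles hold no match, and CYCB1;3 and the upper 3 CYCB2 genes share the order reverse, forward, reverse.

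At 3 h after cutting, every B-type cyclin was lower in mock cut than in mock uncut tips, and the libraries of the groups overlapped in 0 of 9 genes, where 12.6% of all genes tested lay wholly lower. The fall was between 5.07-fold for CYCB1;3 and 16.1-fold for CYCB2;1, with a median log2 fold change of -3.60 over the 9 genes and -0.02 over all 16354 genes tested. EdgeR's quasi-likelihood test called 9 of 9 lower (adjusted p = 0.00423 to 0.0357), where 5.9% of all genes were called lower. Summed, the 9 genes were at 12.9, 26.6 and 19.0 CPM in mock cut tips at 3 h, against 153, 158 and 247 CPM in mock uncut tips. In whole tips, fewer dividing cells and less cyclin RNA per cell cannot be told apart.

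Among the CYCB1 genes, CYCB1;1 had 0, 5.43 and 1.12 CPM in mock cut tips at 3 h, against 14.6, 13.8 and 23.2 CPM in mock uncut tips. Replicate 2 of the cut tips was the highest of its group and still lay below every uncut library. Its log2 fold change was -3.05 ± 0.88 SE (edgeR adjusted p = 0.0357), the call of the 9 nearest the threshold. CYCB1;2 had 0.460, 8.45 and 2.23 CPM in mock cut tips at 3 h, against 17.3, 26.3 and 45.4 CPM in mock uncut tips, with the same cut library highest. CYCB1;3 had 3.22, 3.62 and 1.67 CPM in mock cut tips at 3 h, against 8.79, 12.0 and 22.9 CPM in mock uncut tips, and its fall was the smallest of the 9 (log2 fold change -2.34 ± 0.65 SE). CYCB1;4 had 1.38, 0.604 and 2.79 CPM in mock cut tips at 3 h, against 16.4, 13.8 and 35.1 CPM in mock uncut tips. Here mock uncut replicate 3 stood well above the other uncut libraries, and the cut libraries were all low (log2 fold change -3.74 ± 0.62 SE, edgeR adjusted p = 0.00423).

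Among the CYCB2 genes, CYCB2;1 had 0, 1.81 and 1.12 CPM in mock cut tips at 3 h, against 13.9, 15.7 and 16.4 CPM in mock uncut tips. The log2 fold change of -4.01 ± 0.85 SE was the largest fall of the 9 genes in the fit of all libraries. With the set matched it was -4.12 ± 0.74, and 3 genes fell more, CYCB1;4 the most at -4.43 ± 0.53. CYCB2;2 had 1.84, 1.21 and 1.12 CPM in mock cut tips at 3 h, against 13.0, 15.2 and 26.4 CPM in mock uncut tips. CYCB2;3 had 0.460, 1.21 and 5.02 CPM in mock cut tips at 3 h, against 37.6, 32.8 and 27.4 CPM in mock uncut tips. In this gene alone of the 9, mock uncut replicate 3 was the lowest uncut library. CYCB2;4 had 5.06, 4.23 and 2.79 CPM in mock cut tips at 3 h, against 25.8, 25.4 and 37.7 CPM in mock uncut tips, a fall of 7.24-fold. CYCB3;1, whose transcript was scarce in every group, had 3 reads over the mock cut tips at 3 h and 62 over the mock uncut tips, a ratio of 0.0738 (exact 95% interval 0.0148 to 0.226, counting error only).

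CYCB1;4 and the 4 CYCB2 genes were called whichever library of either group was left out. The other 4 genes lost calls in some of these fits, and the lowest count of called members was 5, without mock cut 3 h replicate 1. The set-matched fit called 9 of 9 lower, against 4.95% of all genes, and so did the set term alone (3% of all genes). Leaving out only the library labelled replicate 2 of L-Kyn cut tips at 3 h also gave 9 of 9 (7.16% of all genes). With only the groups compared in the fit, 5 of 8 tested were called, against 0.939%. Within set B alone, where mock uncut tips have 1 library, 0 were called (adjusted p = 0.102 to 0.143), and so were 0.0117% of all genes. With the library labelled replicate 2 of L-Kyn cut tips left out of that fit, 8 of 9 were called, all but CYCB1;1, against 1.33%.

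**Figure D2:**
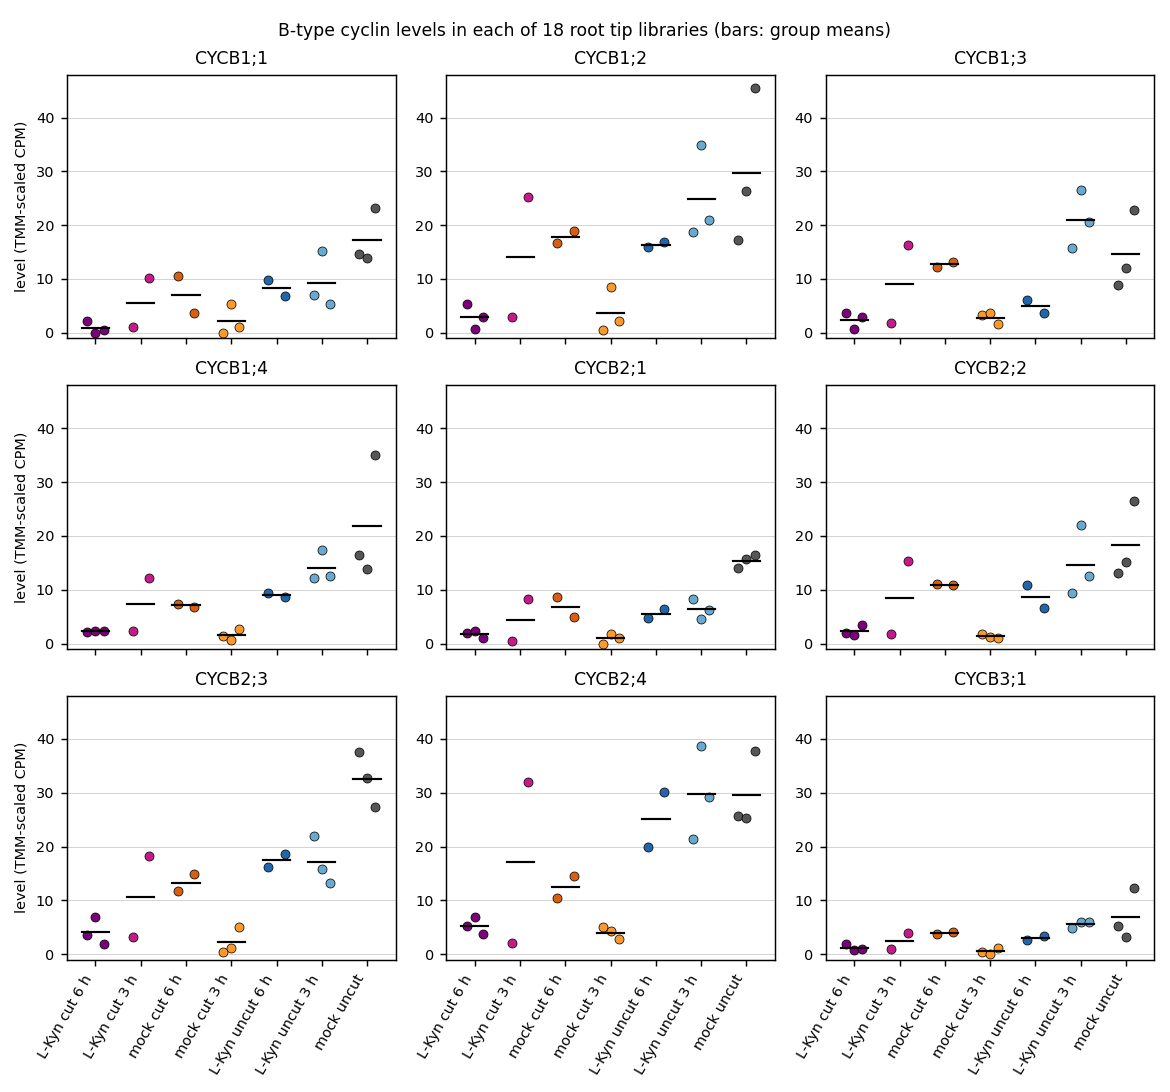
Level of each B-type cyclin (y axis, TMM-scaled CPM, linear) in each library (points) by group (x axis), with group means as bars. Mock cut tips at 3 h lie below all mock uncut tips for every gene, and the L-Kyn cut 3 h group is split by its library with the higher values.

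Markers of tissues in and above the tip also differed between mock cut and mock uncut tips at 3 h. The root cap markers summed to 3.02 to 11 CPM in mock cut tips at 3 h, against 47.5 to 273 CPM in mock uncut tips. Of 6 root cap markers tested 4 were lower, and BFN1 and FEZ had 0 reads in the cut tips. The 7 stem cell niche and meristem markers summed to 72.7 to 136 CPM in mock cut tips at 3 h, against 150 to 253 CPM in mock uncut tips. Of these, PLT1, RGF2 and RGF3 were lower, RGF3 with 0 reads in cut tips, and WOX5, the gene of the QC, was higher. Root hair markers, which mark differentiated epidermis, summed to 6.69 to 19.3 CPM in mock cut tips at 3 h, against 2.58 to 5.76 CPM in mock uncut tips, and EXPA18, EXPA7 and PRP3 had 0 reads in the cut tips. Green tissue markers summed to at most 21.1 CPM in mock cut tips at 3 h, against 28.4 to 314 CPM in mock uncut tips. Of 9 tested, 7 were called lower in the fit of all libraries (median log2 fold change -4.29). The set-matched fit called 0 of 9 (median -0.58). Their mean sum was also low in uncut tips with L-Kyn for 3 h, which are of set B like the mock cut tips at 3 h. The part of these tissues in the fall of the cyclins was not tested.

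At 6 h after cutting, the B-type cyclins of mock cut tips lay between the levels of mock cut tips at 3 h and those of mock uncut tips. The 9 genes together were at 92.3 and 91.7 CPM in mock cut tips at 6 h, against 153, 158 and 247 CPM in mock uncut tips. All 9 log2 fold changes against mock uncut tips were negative, with a median of -1.19, and edgeR called 0 of 9, as it did 0% of all genes. At an unadjusted p under 0.05 there were 2, CYCB1;4 (log2 fold change -1.62 ± 0.60 SE) and CYCB2;3 (-1.28 ± 0.62), against 5.01% of all genes in that direction. DESeq2 called 0 of the 9.

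CYCB1;3 was nearest to the uncut level at 6 h, with 12.3 and 13.1 CPM in mock cut tips at 6 h, against 8.79, 12.0 and 22.9 CPM in mock uncut tips. Its groups overlapped, and its log2 fold change of -0.20 ± 0.63 SE was 0.27 ± 0.48 in the set-matched fit. CYCB1;4 had 7.39 and 6.77 CPM in mock cut tips at 6 h, below all 3 mock uncut tips at 16.4, 13.8 and 35.1 CPM. CYCB2;3 had 11.7 and 14.9 CPM in mock cut tips at 6 h, also below all 3 mock uncut tips at 37.6, 32.8 and 27.4 CPM. In 6 of the 9 genes the 6 h libraries lay below every uncut library, against 15.3% of all genes, and in 3 the groups overlapped.

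Set against 3 h, the mock cut tips at 6 h held more of every B-type cyclin, and in 8 of 9 genes, all but CYCB1;1, the libraries did not overlap, against 18.2% of all genes. CYCB2;2 had 11.1 and 10.8 CPM at 6 h, against 1.84, 1.21 and 1.12 CPM at 3 h. CYCB2;4 had 10.5 and 14.5 CPM at 6 h, against 5.06, 4.23 and 2.79 CPM at 3 h, the smallest difference of the family (log2 fold change 1.62 ± 0.72 SE). The median log2 fold change was 2.32, and edgeR called 0 of 9, against 0.575% of all genes called higher. At an unadjusted p under 0.05 there were 8 of 9, against 7.28%. DESeq2 called 2 of 9 higher, against 1.29% of all genes.

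Because all 6 h libraries are of set A and all mock cut 3 h libraries of set B, hours and set cannot be told apart in that contrast without the mock uncut tips. The set-matched fit tests whether the cut response differs between 6 h and 3 h. There CYCB1;3 (log2 difference 3.27 ± 0.74 SE), CYCB1;4 (3.30 ± 0.74) and CYCB2;2 (3.80 ± 0.78) were called higher at 6 h (edgeR adjusted p = 0.0349, 0.0318 and 0.0228). That is 3 of 9, against 0.171% of all genes. The calls rest on leaving out the library labelled replicate 2 of L-Kyn cut tips, which is in neither group. With the set term and all 18 libraries 0 of 9 were called (edgeR adjusted p = 0.107 to 0.387), against 0.0245% of all genes. Without that library and with no set term 2 were called, against 0.915%. Both time points were compared with the same mock uncut tips. Root cap markers stayed low in mock cut tips at 6 h, at 8.62 and 13.5 CPM in sum. Green tissue markers summed to 139 and 326 CPM in mock cut tips at 6 h, against at most 21.1 CPM in mock cut tips at 3 h, and 4 of 9 tested were called higher in the fit of all libraries and 0 of 9 in the set-matched fit. Their part in the difference was not tested.

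**Figure D3:**
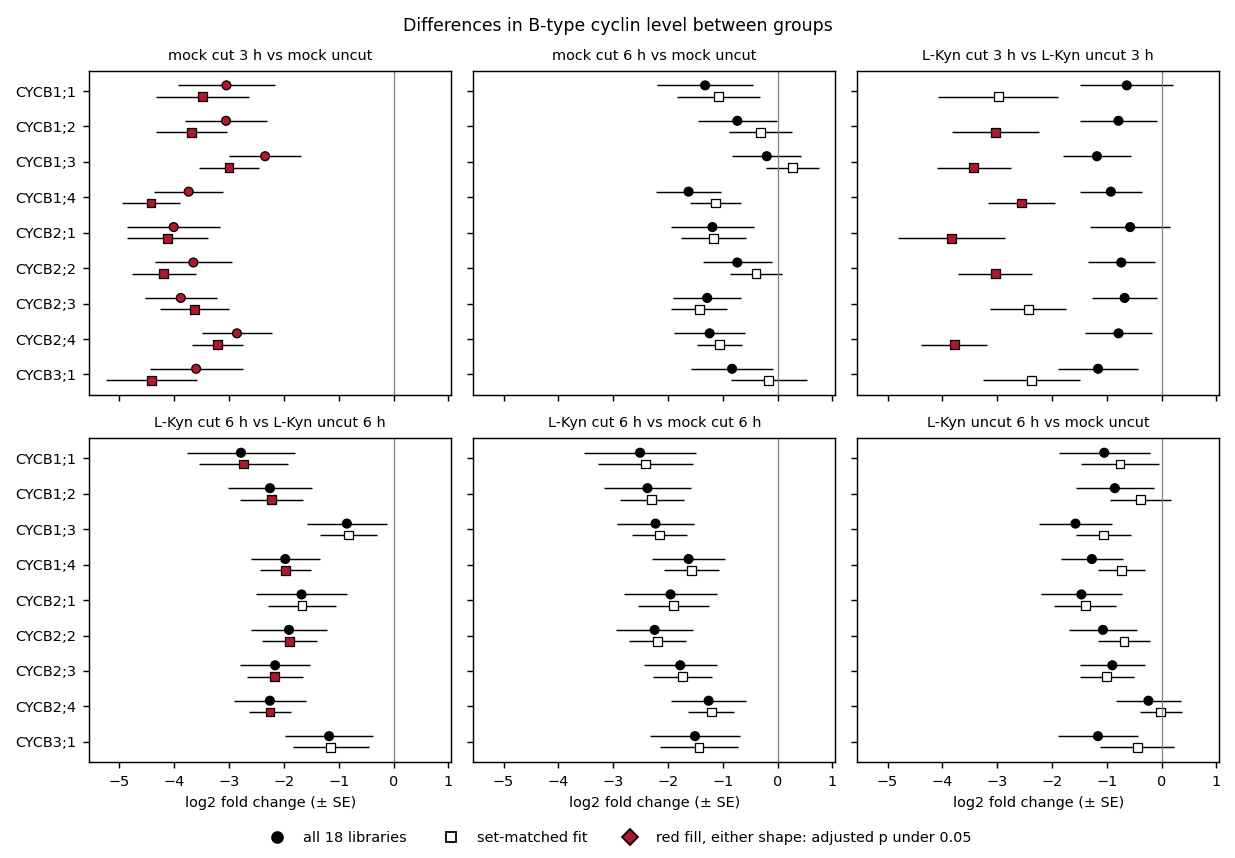
Log2 fold changes (x axis, ± SE) of the 9 B-type cyclins (y axis) in 6 comparisons. Circles are the fit of all 18 libraries, squares the set-matched fit, and red fill marks an adjusted p under 0.05. All 9 are red at 3 h in mock tips in both fits, and 6 of 9 squares are red for each cut response with L-Kyn.

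With L-Kyn at 6 h, the cut tips again had less of every B-type cyclin than the uncut tips. The libraries did not overlap in any of the 9, against 20.3% of all genes lower without overlap. The 9 genes together were at 27.8, 22.2 and 19.7 CPM in L-Kyn cut tips at 6 h, against 95.5 and 101 CPM in L-Kyn uncut tips at 6 h. All these libraries are of set A. Log2 fold changes ran from -2.78 for CYCB1;1 to -0.85 for CYCB1;3, with a median of -1.98. In the fit of all libraries edgeR called 0 of 9, against 0.263% of all genes called lower. At an unadjusted p under 0.05 there were 6, against 8.67%.

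CYCB2;4 had 5.26, 6.88 and 3.84 CPM in L-Kyn cut tips at 6 h, against 19.9 and 30.2 CPM in L-Kyn uncut tips at 6 h (log2 fold change -2.26 ± 0.65 SE, edgeR adjusted p = 0.0915). CYCB2;3 had 3.59, 6.88 and 1.92 CPM in L-Kyn cut tips at 6 h, against 16.2 and 18.7 CPM in L-Kyn uncut tips at 6 h. CYCB1;1 had 2.15, 0 and 0.480 CPM in L-Kyn cut tips at 6 h, against 9.79 and 6.90 CPM in L-Kyn uncut tips at 6 h. CYCB1;3, which was low in the uncut tips as well, had 3.59, 0.765 and 2.88 CPM in L-Kyn cut tips at 6 h, against 6.07 and 3.74 CPM in L-Kyn uncut tips at 6 h. L-Kyn cut 6 h replicates 1 and 3 thus came within 0.15 and 0.86 CPM of the lower of those uncut libraries.

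The number of calls in this comparison differed between fits. The set-matched fit called 6 of 9 lower, 3 CYCB1 and 3 CYCB2 genes, against 3.1% of all genes, with a median log2 fold change of -1.97. All these libraries are of set A, and the calls came with leaving out a 3 h library of neither group. The set term with all 18 libraries called 0 of 9, against 0.893%, and leaving out that library with no set term called 3, against 1.56%. Within set A alone 7 of 8 tested were called, against 5.53%. With only the groups compared 5 of 7 tested were called, against 2.93%, and DESeq2 called 2 of 8 with an adjusted p, against 2.14%. CYCB1;3 was called in none of these fits. The root cap markers summed to 8.41 to 18.9 CPM in L-Kyn cut tips at 6 h, against 198 and 244 CPM in L-Kyn uncut tips at 6 h, with FEZ at 0 reads in the cut tips, and their part was not tested.

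At 3 h with L-Kyn, the comparison rests on which library stands for the cut tips. The 9 genes together were at 16.6 CPM in L-Kyn cut 3 h replicate 1 and 142 CPM in the library labelled replicate 2, against 120, 181 and 127 CPM in L-Kyn uncut tips at 3 h. Replicate 1 lay below every uncut library for 9 of 9 genes, against 32.3% of all genes, and the library labelled replicate 2 lay within the uncut range or above it for 8 of them, all but CYCB3;1. With both, the median log2 fold change was -0.79 and edgeR called 0 of 9 and 0% of all genes. Without the library labelled replicate 2, 3 of 9 were called lower, against 0.579% of all genes.

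For that comparison the set-matched fit called 6 of 9 lower, against 1.1% of all genes. The set term with both cut libraries called 0, as it did 0% of all genes. The log2 fold changes of the set-matched fit ran from -3.83 for CYCB2;1 to -2.38 for CYCB3;1, with a median of -3.03. CYCB2;4 had 2.1 CPM in L-Kyn cut 3 h replicate 1, against 21.5, 38.7 and 29.3 CPM in L-Kyn uncut tips at 3 h (log2 fold change -3.78 ± 0.60 SE, edgeR adjusted p = 0.000391). CYCB1;3 had 1.89 CPM in L-Kyn cut 3 h replicate 1, against 15.8, 26.5 and 20.5 CPM in L-Kyn uncut tips at 3 h. Within set B alone, again without the library labelled replicate 2, these 2 genes were called, against 0.394%. In both fits the cut tips have a single library, which is assumed to vary as the others do.

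Among cut tips at 6 h, L-Kyn tips had less of every B-type cyclin than mock tips. The libraries did not overlap in any of the 9, against 19% of all genes lower without overlap. The 9 genes together were at 27.8, 22.2 and 19.7 CPM in L-Kyn cut tips at 6 h, against 92.3 and 91.7 CPM in mock cut tips at 6 h. CYCB1;2 had 5.26, 0.765 and 2.88 CPM in L-Kyn cut tips at 6 h, against 16.6 and 19.0 CPM in mock cut tips at 6 h. CYCB2;2 had 1.91, 1.53 and 3.36 CPM in L-Kyn cut tips at 6 h, against 11.1 and 10.8 CPM in mock cut tips at 6 h. The log2 fold changes of the family ran from -2.51 for CYCB1;1 to -1.26 for CYCB2;4, with a median of -1.95.

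EdgeR called 0 of these 9 differences, as it did 0% of all genes. At an unadjusted p under 0.05 there were 7 of 9, against 3.56% of all genes lower. The lowest adjusted p in the set-matched fit was 0.0825, and DESeq2 called 0 of the 9. Within set A alone, the set of all these libraries, CYCB1;2 was called lower (log2 fold change -2.28 ± 0.45 SE, edgeR adjusted p = 0.0365), against 0.0813% of all genes. Root cap markers summed to similar levels in both groups, 8.41 to 18.9 CPM in L-Kyn cut tips at 6 h, against 8.62 and 13.5 CPM in mock cut tips at 6 h. Root hair markers summed to 5.35 to 14.4 CPM in L-Kyn cut tips at 6 h, against 19.1 and 28.0 CPM in mock cut tips at 6 h. The stem cell niche and meristem markers summed to 135 to 154 CPM in L-Kyn cut tips at 6 h, against 93.9 and 94.8 CPM in mock cut tips at 6 h, while 6 of 7 single genes had negative log2 fold changes (median -1.34) and RGF2 had 0 reads in the L-Kyn cut tips. None of these markers was called, and their part in the difference was not tested. The hours since the cut are given in the labels for mock cut tips only.

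Whether the cut response at 6 h itself differed with L-Kyn was tested as an interaction. All 9 log2 differences were negative, from -1.52 ± 1.05 SE for CYCB1;2 to -0.35 ± 1.06 for CYCB3;1, with a median of -0.88. EdgeR called 0 of 9 and 0% of all genes, with 0 of the 9 at an unadjusted p under 0.05. With the set matched, 3 of the 9 were lower at an unadjusted p under 0.05, against 1.95% of all genes, and every adjusted p was at least 0.974.

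Between L-Kyn and mock cut tips at 3 h, both groups were low in all but the library labelled replicate 2 of L-Kyn cut tips. With it the median log2 fold change was 2.14, and edgeR called 0 of 9 and 0% of all genes. Without it the median was -0.26, and without L-Kyn cut 3 h replicate 1, 7 of 9 were called higher, against 1.48% of all genes. The comparison thus turned on a single library.

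In uncut tips with L-Kyn, no B-type cyclin passed the threshold at either time. At 6 h the 9 genes together were at 95.5 and 101 CPM in L-Kyn uncut tips, against 153, 158 and 247 CPM in mock uncut tips. All 9 log2 fold changes were negative, from -1.57 ± 0.67 SE for CYCB1;3 to -0.24 ± 0.60 for CYCB2;4, with a median of -1.07. EdgeR called 0 of 9 and 0% of all genes, and 2 of the 9 had an unadjusted p under 0.05, against 5.14% of all genes lower. With the set matched all 9 were again negative, with a median of -0.73, and 0 were called. In 7 of 9 genes both L-Kyn libraries lay below every mock uncut library, against 11.4% of all genes.

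At 3 h the 9 genes together were at 120, 181 and 127 CPM in L-Kyn uncut tips, against 153, 158 and 247 CPM in mock uncut tips. Log2 fold changes ran from -1.23 ± 0.64 SE for CYCB2;1 to 0.50 ± 0.55 for CYCB1;3, with a median of -0.36. EdgeR called 0 of 9 and 0% of all genes, and 0 of the 9 had an unadjusted p under 0.05, against 5.99% of all genes lower. With the set matched all 9 were negative, from -1.43 ± 0.76 SE for CYCB1;1 to -0.15 ± 0.51 for CYCB1;3. The median was then -0.91, and 0 of 9 were called. There 2 of the 9 had an unadjusted p under 0.05, as had 2302 of 16934 genes in either direction. CYCB2;1 had 8.20, 4.55 and 6.28 CPM in L-Kyn uncut tips at 3 h, against 13.9, 15.7 and 16.4 CPM in mock uncut tips, with no overlap. The other gene without overlap was CYCB2;3, and 2 of 9 compares with 7.87% of all genes. It was at 22.1, 15.9 and 13.2 CPM in L-Kyn uncut tips at 3 h, against 37.6, 32.8 and 27.4 CPM in mock uncut tips. The mock uncut tips carry no time, so hours elapsed cannot be told apart from L-Kyn here. L-Kyn uncut tips at 3 h are all of set B and those at 6 h all of set A, while mock uncut tips are of both sets.

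Among uncut tips with L-Kyn, CYCB1;3 was the gene whose level differed most between the times, chosen here after its values were seen. It had 6.07 and 3.74 CPM in L-Kyn uncut tips at 6 h, against 15.8, 26.5 and 20.5 CPM in L-Kyn uncut tips at 3 h. Its log2 difference, 6 h minus 3 h, was -2.08 ± 0.68 SE, not called over all genes (edgeR adjusted p = 0.104), and the other 8 genes lay between -0.86 and 0.03. It was -0.92 ± 0.72 with the set matched. Of the reads on the 9 genes, this gene took 6.36% and 3.68% in uncut tips with L-Kyn for 6 h (exact Clopper-Pearson 95% intervals 3.81% to 9.87% and 1.98% to 6.21%). It took 13.2%, 14.6% and 16.2% in uncut tips with L-Kyn for 3 h (intervals 10.2% to 16.9%, 10.4% to 19.8% and 13.3% to 19.4%), and 5.77%, 7.58% and 9.27% in mock uncut tips.

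Over the 7 groups, the order of mean levels was much alike from gene to gene. Mock uncut tips had the highest mean in 7 of 9 genes, and L-Kyn uncut tips at 3 h in the other 2. Mock cut tips at 3 h had the lowest mean in 6 of 9, and L-Kyn cut tips at 6 h in the other 3, all of the CYCB1 group. Between neighbours in that order, 4 to 6 of the 6 steps had overlapping libraries in each gene, so the libraries do not settle the order of most neighbours. The steps beside L-Kyn cut tips at 3 h include the library labelled replicate 2, which widens that group's range. The order without it was not worked out. Overlap of groups of 2 or 3 libraries is no test of a difference. L-Kyn cut tips at 6 h and mock cut tips at 3 h overlapped in all 9 genes.

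As a description over the 18 libraries, which share depth and set, the 36 pairs of members had Pearson correlations of log2 CPM between 0.66, for CYCB1;3 with CYCB2;3, and 0.96, for CYCB1;4 with CYCB3;1, with a median of 0.85. Against the mean standardised level of the 9, which each member helps to make, members ranged from 0.89 for CYCB1;3 to 0.97 for CYCB2;2. The 8 other genes most like that mean were CDKB2;2 (r = 0.95), TRM7 (0.94), IMK2 (0.94), SYP111 (0.94), AT3G51280 (0.93), CPN60A (0.93), CSLD5 (0.93) and AT5G17160 (0.93). CDKB2;2 is a plant-specific mitotic CDK, SYP111 is KNOLLE, the syntaxin of the cell plate, TRM7 belongs to the TON1-recruiting family, CSLD5 makes cell wall polysaccharide and CPN60A is a plastid chaperonin. Within set A their r ran from 0.88 to 0.93 and within set B from 0.95 to 0.98. Of these 8, 5 held an AACGG match in the 250 bases before the gene, and CSLD5 (5 matches) and AT3G51280 (3 matches) held at least 3.

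CDKB2;2 had 2.30, 6.04 and 4.46 CPM in mock cut tips at 3 h, against 13.9, 19.4 and 41.9 CPM in mock uncut tips (log2 fold change -2.57 ± 0.52 SE, edgeR adjusted p = 0.00824). It had 7.66, 3.82 and 6.23 CPM in L-Kyn cut tips at 6 h, against 12.3 and 8.58 CPM in mock cut tips at 6 h. KNOLLE had 7.36, 6.64 and 7.81 CPM in mock cut tips at 3 h, against 49.7, 66.0 and 52.8 CPM in mock uncut tips.

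Other genes of the same pathway were taken from lists by role. The lists were chosen with earlier results of these data known, so their counts are a description. Of all 16354 genes tested at 3 h in mock tips, 965 (5.9%) were called lower and 653 higher. At 3 h in mock cut tips, 9 of 10 spindle and cytokinesis genes were lower, with a median log2 fold change of -2.76. Among them the spindle checkpoint gene MAD2 had -3.61 ± 0.59 SE, the kinesin gene POK2 of division plane placement -3.35 ± 0.64, KNOLLE -2.94 ± 0.60 and the checkpoint gene BUBR1 -2.58 ± 0.56 (edgeR adjusted p = 0.00404 to 0.0112). That list came nearest to the B-type cyclins, whose median was -3.60, and the difference between the lists was not tested.

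Of the mitotic kinases and cofactors, a list that holds Aurora kinases and WEE1 beside the CDKs, 3 of 11 were lower at 3 h (median -1.06), among them CDKB2;2 and CDKB2;1 (-1.26 ± 0.39, edgeR adjusted p = 0.0471). Of the A-type cyclins, which act from DNA synthesis into mitosis, 2 of 7 were lower (median -0.14), CYCA1;1 at -3.72 ± 0.86 and CYCA2;4 at -2.30 ± 0.45. CYCA1;1 had 0, 3.62 and 1.67 CPM in mock cut tips at 3 h, against 14.6, 32.3 and 20.6 CPM in mock uncut tips. At 6 h it had 23.4 and 24.4 CPM in mock cut tips, within the range of mock uncut tips.

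Of the regulators that act on B-type cyclins, 2 of 8 genes for activators and inhibitors of the APC/C were lower at 3 h (median -1.76), among them the inhibitor PANS1 (-1.93 ± 0.52). Of the MYB3R factors, 1 of 4 tested was lower, MYB3R4, an activator of mitotic genes, which was named after its values were seen. It had 2 reads over the mock cut tips at 3 h and 96 over the mock uncut tips, a ratio of 0.0318 (exact 95% interval 0.00379 to 0.118, counting error only). Of the CDK inhibitors 2 of 8 were higher, SIM (1.54 ± 0.43) and SMR1 (1.5 ± 0.46), and 1 lower (median 0.67). Of the DNA replication genes 4 of 13 were lower (median -1.01), namely ORC1A (-1.96 ± 0.56), MCM2 (-1.40 ± 0.36), POLA2 (-1.35 ± 0.33) and MCM7 (-1.34 ± 0.36). With the set matched, the counts at 3 h were 7 of 10 lower for spindle and cytokinesis, 4 of 11 for the kinases and cofactors, 2 of 7 for the A-type cyclins, 3 of 7 for the APC/C list, 1 of 4 for the MYB3R factors, 1 of 13 for DNA replication and 0 in either direction for the CDK inhibitors, so the calls of SIM and SMR1 were lost there. Of all 16934 genes in that fit, 839 (4.95%) were called lower and 1067 higher. The small counts were not tested against these shares.

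**Figure D4:**
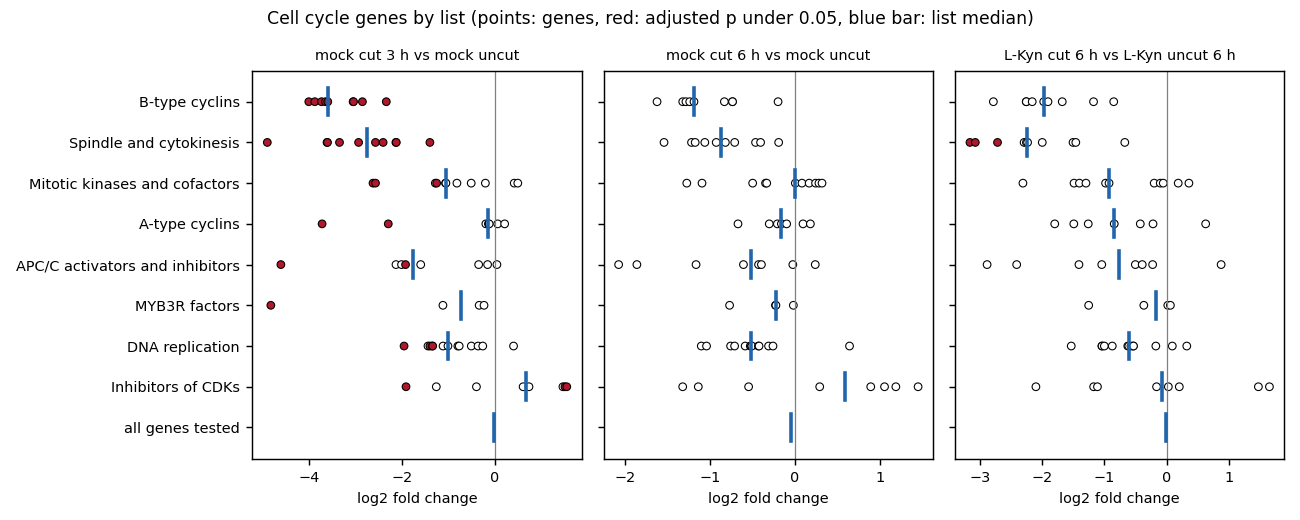
Log2 fold changes (x axis) of cell cycle genes by list (y axis) in 3 comparisons, with 1 point per gene, red for an adjusted p under 0.05 in the fit of all 18 libraries, and a blue bar at the list's median. The x axes differ in range. The B-type cyclins and the spindle and cytokinesis genes lie farthest left at 3 h in mock tips, and the medians over all genes tested lie at 0.

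At 6 h after cutting in mock tips, 0 genes of these cell cycle lists were called, as were 0 of all 16354 genes tested. The medians were -0.87 for spindle and cytokinesis and 0.01 for the kinases and cofactors. In L-Kyn cut against L-Kyn uncut tips at 6 h, 3 of 10 spindle and cytokinesis genes were lower, TPX2 (-3.16 ± 0.67), KNOLLE (-3.07 ± 0.63) and MAD2 (-2.72 ± 0.56), where 0 of 9 B-type cyclins passed in the same fit. Of all genes, 0.263% were called lower in that fit. The set-matched fit called 8 of 10, beside 6 of 9 B-type cyclins, against 3.1% of all genes. In that comparison the DNA replication genes had a median of -0.61 with 0 of 13 called, and the MYB3R factors a median of -0.18 with 0 of 4.

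The promoter matches did not divide the family by its response. The 3 genes with no AACGG in the window had log2 fold changes of -3.74, -2.86 and -3.60 at 3 h in mock tips. The 6 with at least 3 matches ran from -4.01 to -2.34. The split depends on the window, since CYCB2;4 and CYCB3;1 held matches over 1000 bases. A link between matches and response was not tested. Among the lists, 7 of 10 spindle and cytokinesis promoters held at least 1 match and 0 held 3. A match is a string of letters in a window, and no factor's binding was measured here.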

How the data were processed

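Root tip RNA was sequenced with a 3′ kit in 18 libraries of 7 groups. The authors deposited raw counts of reads per locus. The submitters' processing notes name Bowtie2, HTSeq, DESeq2 and the build TAIR10, and no version is given in the sources used here. Lines that name no gene numbered 3 and were left out. Per library they held 46.4% to 83.2% (low alignment quality), 3.75% to 15.1% (no feature) and 0.0918% to 0.329% (ambiguous) of the total. RefSeq's TAIR10.1 table held 21793 of the loci, and promoter windows come from that assembly.

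Comparisons were contrasts in an edgeR quasi-likelihood fit (edgeR 4.0.16, limma 3.58.1, R 4.3.3) to all 18 libraries, with TMM factors. The expression filter by group left 16354 genes, and p-values were adjusted over all of them by Benjamini-Hochberg at 0.05. The set-matched fit had 16934 genes. CPM carry the TMM factors, SE is the log2 fold change over the root of F, and correlations used log2 CPM with a prior count of 2. The fit was tested on data simulated with a single dispersion, no set effect and no library standing apart, so that test does not cover these features. The labels do not say that replicates are separate pools, so that p-values speak of the spread of these libraries alone, and it may be technical. Intervals and floors of 3 counts cover counting error only. Replicate libraries differed beyond sampling noise.

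The members and lists were chosen with earlier results of these data known. Of 110 list genes, 4 were dropped because the symbol did not match. Named were the members, up to 4 called genes of a list with at least 10 CPM, and the 8 genes most like the members. Alternatives were RLE factors, DESeq2 1.42.0, no filter, a mean of at least 5 CPM, a replicate block, a set term, a fit of the compared groups only, and leaving out each library. Fits within 1 set, and leaving out L-Kyn cut 3 h replicate 2 in comparisons that do not use it, were added after seeing the data. Summaries and figures were made in Python 3.11.15 with pandas 2.3.3, numpy 2.4.6 and matplotlib 3.10.9.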

Additional observations from a re-analysis of the deposited data

Results flagged for a closer look

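In 3 B-type cyclins the cut response of mock tips differed between 6 h and 3 h in the set-matched fit, by a test of the difference itself (edgeR, adjusted over all genes). The log2 difference was 3.27 for CYCB1;3, 3.30 for CYCB1;4 and 3.80 for CYCB2;2, higher at 6 h in each. In the fit of all 18 libraries the same contrast gave 2.15, 2.11 and 2.92, with adjusted p = 0.197, 0.204 and 0.0884, and none was called. With the set term but with all 18 libraries, 0 of 9 were called (lowest adjusted p = 0.107), so the calls rest on leaving out the library labelled replicate 2 of L-Kyn cut tips, which is in neither group. The groups had 2 and 3 libraries, and the set term rests on the mock uncut libraries alone. No group of 4 or more libraries was there to be searched for a library far from the others.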

How the results depend on the processing

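No B-type cyclin call reversed under any setting tried. Of the recomputed counts of called members, 142 stayed within 1.5 times of the reported count and 16 moved. In mock cut against mock uncut tips at 3 h, the 9 calls became 5 with only the groups compared, 0 within set B alone, and 5 to 9 with 1 library left out. In mock cut tips at 6 h against 3 h, the 0 calls became 3 in the set-matched fit, 2 with DESeq2 and 0 to 2 with 1 library left out. In L-Kyn cut against L-Kyn uncut tips at 3 h, the 0 calls became 6 in the set-matched fit, 2 within set B alone with L-Kyn cut 3 h replicate 2 also left out, and 0 to 3 with 1 library left out. In L-Kyn cut against L-Kyn uncut tips at 6 h, the 0 calls became 6 in the set-matched fit, 5 with only the groups compared, 2 with DESeq2, 7 within set A alone and 0 to 3 with 1 library left out. In L-Kyn cut against mock cut tips the 0 calls became 0 to 7 at 3 h with 1 library left out and 1 at 6 h within set A alone. Calls over all genes, in either direction, also varied with 1 library left out. In the order of these comparisons they were 557 to 2467, 1 to 185, 0 to 339, 0 to 560 and, at 3 h, 0 to 386. In the fit of all 18 libraries they were 1618, 103, 0, 99 and 0. Of single genes' settings, 1319 kept their side of the threshold, 25 lost a call and 49 gained a call. The cause was not tested. The replicate block gave 9 calls in mock cut tips at 3 h and 0 in the other comparisons. Of 48 same-numbered pairs of libraries, 6 had correlated deviations over 0.1 (range -0.25 to 0.32), and replicate numbers were not used as pairs in the main fit. In groups of 2 libraries the deviations mirror each other and some values repeat, so this check cannot exclude a pairing. Depth limits the low end, as the 9 genes together had 28 to 44 reads per library in mock cut tips at 3 h.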

Other observations

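CYCB1;5 (AT1G34460), a gene of the same subfamily outside the 9, had few reads. It had 0 to 2 reads per library in mock cut tips at 3 h and 3 to 6 in mock cut tips at 6 h, against 0 to 24 in mock uncut tips, where replicate 3 had 0. It had 1 to 6 reads in L-Kyn cut tips at 6 h, against 9 and 14 in L-Kyn uncut tips for that time, and with L-Kyn for 3 h the cut tips had 4 and 14 reads, against 6 to 9 in the uncut tips. It was named after its values were seen.

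The makeup of the family's reads varied between libraries. CYCB2;3 took 12.7% and 16.3% of the reads on the 9 genes in mock cut tips at 6 h, against 24.7%, 20.7% and 11.1% in mock uncut tips, the last being the library of set B. CYCB2;4 took 11.3% and 15.8% in mock cut tips at 6 h, against 16.9%, 16.0% and 15.3% in mock uncut tips. In uncut tips with L-Kyn for 6 h it took 20.8% and 29.7%. These shares were not tested.

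Root hair markers had their highest mean sum in mock cut tips at 6 h, at 19.1 and 28.0 CPM, against 2.58 to 5.76 CPM in mock uncut tips. Mock cut tips at 3 h had 6.69 to 19.3 CPM and overlapped with those at 6 h. Only 1 of the 5 markers passed the expression filter. Among the CDK inhibitors, 5 of 11 promoters held an AACGG match and 2 held at least 3.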
